A study of Caenorhabditis elegans with 12 samples.

Results

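The insulin-like peptide genes of Caenorhabditis elegans comprise the ins genes and daf-28. All rows of the count table whose WormBase symbol was ins- followed by a number, or daf-28, were taken, which gave 39 genes among 46748 rows. All 39 had a read in at least 3 of the 12 libraries, and 24 had a read in every library.

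RNA was taken from whole day 6 adults of 4 groups with 3 libraries each. The groups were wild type N2 on ad libitum food (N2 AL), N2 on dietary restriction (N2 DR), and the mutant sek-1(km4) on each diet (sek-1 AL and sek-1 DR). The diets were suspensions of Escherichia coli OP50, arrested by cold and antibiotics, with an optical density of 3 (AL) or 0.1 (DR), and 10 to 20 worms shared each 1 ml well from adult day 3 to day 6 at 20 °C. Before that, all groups grew from young adulthood on plates with ampicillin, kanamycin, tetracycline, nystatin and 100 mg/L of FUdR, a drug that blocks progeny. The km4 allele is a germline deletion in sek-1, so all cells carry it, and SEK-1 is the kinase that activates p38 in the worm's immune response. The labels call the libraries biological replicates but do not say that they came from separate cultures, so the p-values measure the spread between these libraries, which may be partly technical. In whole animals, fewer cells of a type and less RNA per cell cannot be told apart.

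Insulin-like peptides are secreted, mostly by neurons and by the intestine, and bind the insulin receptor DAF-2. Agonist peptides activate a kinase cascade through AGE-1 and AKT-1 that keeps the transcription factor DAF-16 out of the nucleus, and antagonist peptides oppose them at the same receptor. The family is known for its part in dauer arrest, lifespan, germ line growth, learning and the pathogen response.

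Of the 39 genes, 10 lay on chromosome I, 15 on II, 5 on III, 4 on IV, 3 on V and 2 on X in the Ensembl annotation of WBcel235. In 7 chains with gaps of at most 20 kb between neighbours, 25 of them lay side by side. The longest chain ran from ins-28 to ins-26 on chromosome I (14012369 to 14037777, 7 genes). The next, on chromosome II, held ins-2, ins-3, ins-4, ins-5, ins-6 and ins-20 (5988524 to 6011321). On chromosome III, ins-21, ins-22 and ins-23 lay between 10023752 and 10028697, and on chromosome IV ins-8 and ins-7 lay between 9680337 and 9682845. All 39 genes had less exonic sequence than the 1378 nt median of the tested genes, with a range of 284 to 955 nt. For 5 members an exon overlaps that of another gene, and counts of these are uncertain because the strand setting of the counting is not given in the sources used here. These are ins-10 (with vps-39), ins-34 (nkcc-1), ins-36 (Y53H1A.7) and ins-37 (R05D7.8) on opposite strands, and ins-13 (acdh-2) on the same strand.

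The libraries held between 13673987 and 31675540 counts, of which the 39 genes took 333 to 1146, or 0.00144% to 0.00594%. Levels are in counts-per-million (CPM) after TMM scaling. Zero reads still allow up to 3 counts, or 0.104 to 0.279 CPM depending on the library, for counting error only. The gene targeted by the mutation, sek-1, stood at 20.8 to 28.6 CPM in N2 apart from N2 AL replicate 3 (3.72 CPM) and at 16.4 to 22.4 CPM in the mutant. A count over the whole gene does not check the deletion. N2 AL replicate 3 stood apart from the other libraries: its log2 CPM correlated with the other N2 AL libraries at a lowest r of 0.904, against 0.991 between those, across genes, which are not independent replicates. Its genes in the shortest quintile by exonic length (20 to 787 nt, which holds 19 of the 22 tested members) were 1.33 above the other N2 AL libraries in median log2 ratio, and those in the longest quintile were 1.01 below (median log2 ratio -1.01). The main edgeR differences of the named tested members that involve N2 AL are therefore given with and without that library. Some values of single pathway genes, and the ratios of members with too few counts, are given with all libraries only. In the comparison of the genotypes on DR and in that of the diets in the mutant, where it bears only on the scaling and the shared spread, leaving it out moved the members' log2 fold changes by at most 0.0899 and 0.0636, and there the text names the calls that change.

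N2 AL replicate 3 was the highest of the 12 libraries for 19 of the 39 members (48.7%), against 30.3% of all tested genes and 41% of all genes with counts in at least 3 libraries. It exceeded both other N2 AL libraries for 32 members (82.1%), against 53.3% of all tested genes and 61.9% of all genes with counts in at least 3 libraries. The gap was widest for ins-7, at 14.8 CPM against a mean of 0.299 CPM in the other N2 AL libraries, which is 49.3-fold. It was 13.6-fold for ins-10 and 29.3-fold for ins-20. Against this, ins-1 (0.0929 CPM against a mean of 0.260 CPM) and daf-28 (0.0929 against 0.352 CPM) were below both, each on 1 count. The part of transcript length and of this library's state in these differences was not tested.

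**Figure D1:**
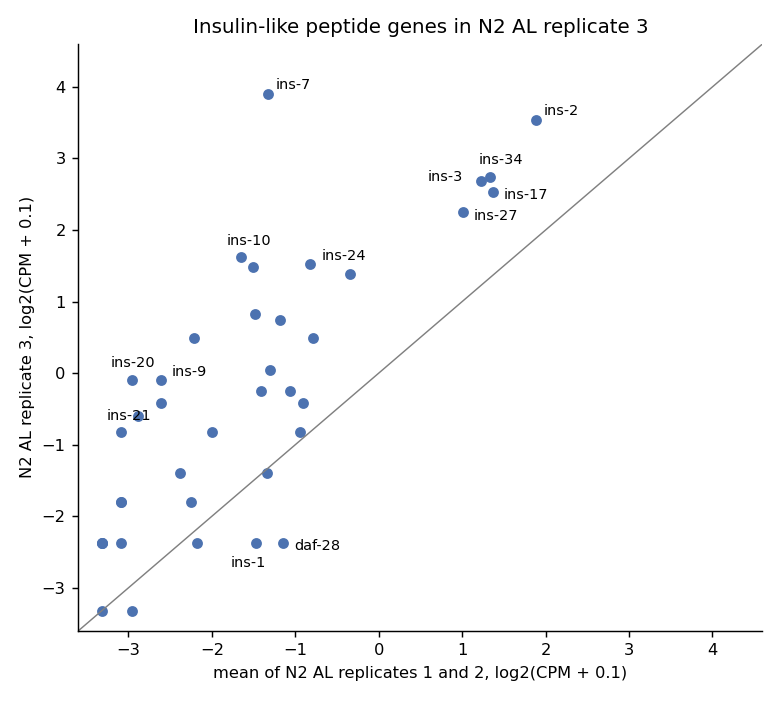
Level of each of the 39 insulin-like peptide genes in N2 AL replicate 3 (vertical) against the mean of N2 AL replicates 1 and 2 (horizontal), both as log2(CPM + 0.1), with the line of equality. In N2 AL replicate 3, 32 of the 39 points exceed both other libraries, with ins-7 farthest above the line and ins-1 and daf-28 below it. Of all genes with counts in at least 3 libraries, 61.9% exceed both.

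Summed over the 39 genes, the level was 19.5, 19.04 and 75.4 CPM in N2 AL replicates 1 to 3 and 24.1, 24.7 and 38.9 CPM in N2 DR. In sek-1 AL it was 23.9, 24.9 and 44.5 CPM, and in sek-1 DR 36.0, 41.1 and 50.1 CPM. The library numbered 3 was the highest in every group. Of that sum, ins-7 made up 0.914% to 2.48% in N2 apart from N2 AL replicate 3 (19.6%), and 13.3% to 27.3% in the mutant. The shares of ins-7 in the 2 genotypes did not overlap once that library was set aside.

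Per kb of exon, 8 genes led the family. Their means over the 12 libraries were 11.5 CPM per kb for ins-7, 11.2 for ins-2, 7.35 for ins-34, 6.74 for ins-22, 5.48 for ins-17, 4.95 for ins-27, 4.37 for ins-23 and 4.21 for ins-3. The SDs over the 12 libraries were 11.7 for ins-7 and 5.84 for ins-2, and those of the other six ran from 2.08 (ins-17) to 4.39 (ins-22), so no 2 neighbours in this order differed by more than their spread. The ninth, ins-10, stood at 1.81 CPM per kb and the lowest, ins-13, at 0.0563. The median of all tested genes was 5.65 CPM per kb, and 4 members exceeded it. Without N2 AL replicate 3 the order began with ins-2 (10.4 CPM per kb) and ins-7 (9.37). The 8 leading genes made up 74.3% of the family's summed mean CPM.

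**Figure D2:**
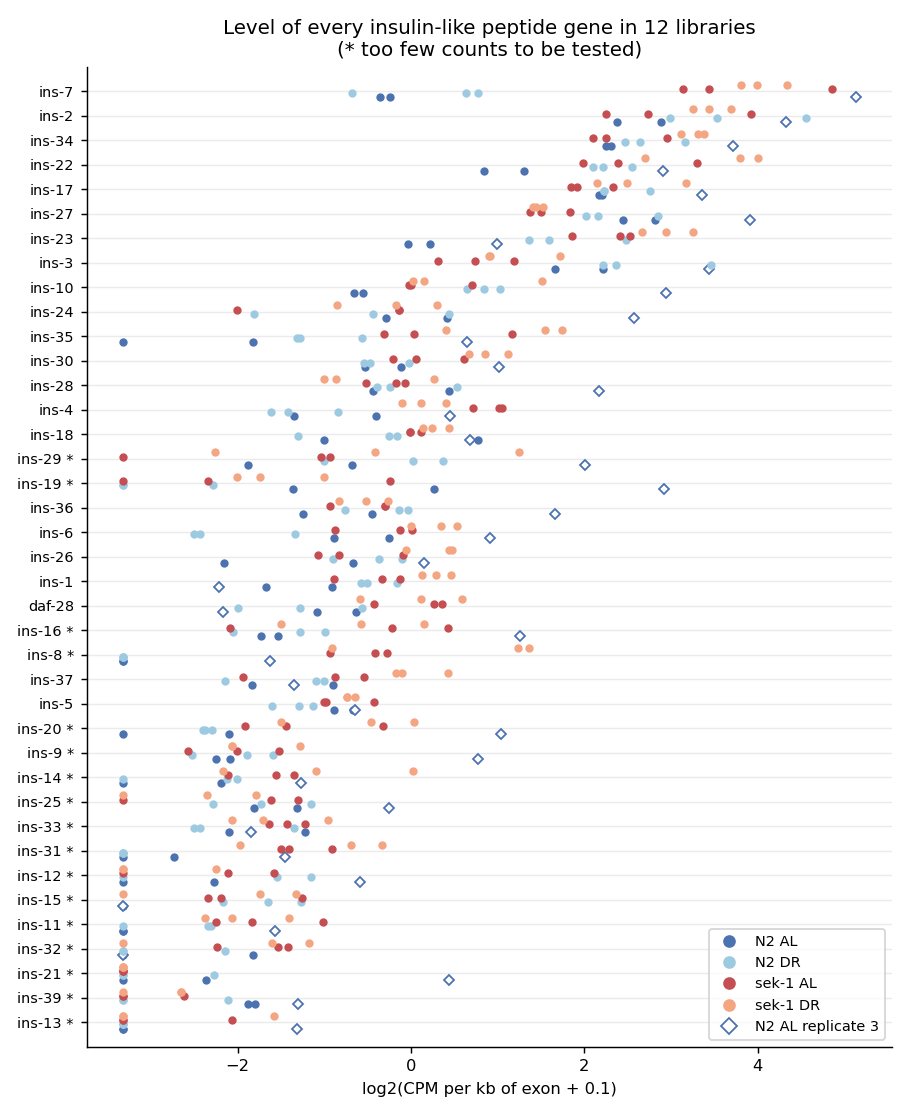
Level of each of the 39 insulin-like peptide genes in the 12 libraries, as log2(CPM per kb of exon + 0.1), ordered by the mean CPM per kb. Points are libraries, colours are the 4 groups, the open diamond is N2 AL replicate 3, and a star marks the 17 genes with too few counts to be tested. The first 8 genes, from ins-7 to ins-3, have means of at least 4.21 CPM per kb, and the diamond lies rightmost for 19 genes. N2 AL replicate 3 is also the highest library for 41% of all genes with counts in at least 3 libraries.

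The 22 members with enough counts for the edgeR quasi-likelihood test were read out from a fit of 14611 genes, with a threshold of 0.05 on the Benjamini-Hochberg adjusted p. Of the 22, 13 reached the count filter's level (0.425 CPM on the raw totals) in at least 3 N2 libraries. The other 9, ins-4, ins-6, ins-35, ins-37 and daf-28 among them, did so in 0 to 2 N2 libraries and needed mutant libraries to enter the test. Counts and medians over the tested members are therefore a description only. Calls of any of these 9 as higher in the mutant are no support for a difference. The 2 genotype comparisons ask how loss of SEK-1 goes with transcript levels on each diet. On AL, 3 of the 22 passed: ins-23 was higher in the mutant, and ins-3 and ins-27 were lower. On DR, 8 passed: ins-4, ins-6, ins-7, ins-23, ins-30, ins-35 and ins-37 were higher and ins-3 was lower. The members' shares, 13.6% and 36.4%, were near those of all tested genes, 17.5% on AL (12.7% higher, 4.72% lower) and 39.5% on DR (24.9% higher, 14.6% lower), so the counts are no result about the family. The libraries of the 2 genotypes did not overlap for 4 members that were higher and 2 that were lower on AL, beside 35.6% of all tested genes in either direction. On DR these were 12 and 2, beside 68.8%. The median log2 fold change of the 22 members was -0.15 on AL, where that of all tested genes was 0.02, and 0.78 on DR, where that of all tested genes was 0.17. Under DESeq2's factors the all-gene median on DR moved to 0.07 and under offsets for exon length to -0.06, and the changes below are to be read against such shifts.

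Without N2 AL replicate 3, 23 members could be tested, and 8 passed on AL (6 higher, 2 lower) and 12 on DR (10 higher, 2 lower). The shares of 34.8% and 52.2% again lay near or below those of all tested genes, 36.8% and 64.6%. The all-gene shares were 23.3% higher and 13.5% lower on AL and 34.6% higher and 30% lower on DR. The 23rd gene, ins-8, entered that test only through its counts in sek-1 DR, and its calls are no support for a difference. The AL comparison gained ins-4, ins-7, ins-8, ins-22 and ins-35, all higher in the mutant. The DR comparison gained ins-8, ins-22 and daf-28 as higher and ins-27 as lower. The members' median log2 fold change became 0.49 on AL, where that of all tested genes was 0.12, so that its sign turned, and 0.73 on DR, where that of all tested genes was 0.13. Libraries did not overlap for 9 higher and 2 lower members on AL, beside 66.8% of all genes tested, and for 13 and 2 on DR, beside 68.5%. With all libraries, the AL split of 1 higher and 2 lower was the same with RLE factors in edgeR, 4 and 2 with offsets for exon length (31.4% of all tested genes passed), and 2 and 2 with DESeq2, where the test changes along with the factors (27%). The DR count fell to 4 without any 1 of the N2 DR libraries, to 2 without sek-1 DR replicate 2 and to 3 without sek-1 DR replicate 3. Each of the counts of 4 included ins-8, and that without N2 DR replicate 1 also included daf-28, neither of which passed with all libraries. Over all genes, 4638, 4110 and 3990 passed without N2 DR replicate 1, 2 and 3. Without sek-1 DR replicate 2 and 3 these were 3785 and 4057, against 5768 with all libraries.

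**Figure D3:**
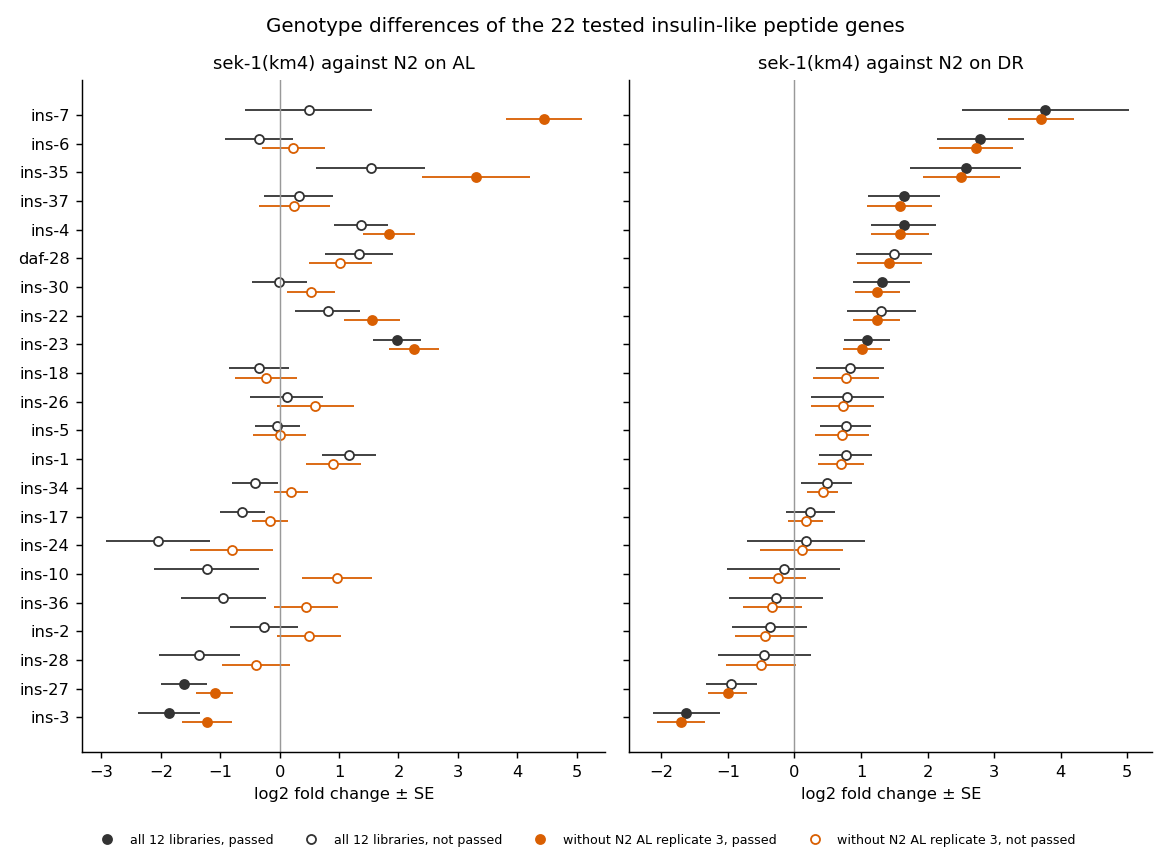
Log2 fold change of sek-1(km4) against N2 on AL (left) and on DR (right) for the 22 tested members, with SE, from edgeR with all 12 libraries (dark) and without N2 AL replicate 3 (orange). Filled points passed at an adjusted p under 0.05. On AL, 3 dark points are filled, on DR 8, and the estimate for ins-7 on AL moves from 0.49 to 4.44 when N2 AL replicate 3 is left out.

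Genes of neurons, where many of these peptides are made, also differed by genotype. The counts of markers with all libraries stand beside the 12.7% of all tested genes that were higher and the 4.72% that were lower on AL, and the 24.9% and 14.6% on DR. Of 10 neuronal marker genes, 6 were higher in the mutant on AL and 7 on DR, and their summed level was 165 to 176 CPM in N2 apart from N2 AL replicate 3 (279.8 CPM) and 211 to 254 CPM in the mutant, with none of the genes at 0 in any library. Of 9 germ line markers, 2 were lower on AL and 6 on DR, with sums of 3010 to 3641 CPM in N2 apart from N2 AL replicate 3 (1935 CPM) and 1492 to 2774 CPM in the mutant. Of 7 intestinal markers, 3 were higher on AL, and 3 were higher and 1 (ges-1) lower on DR, with sums of 61.8 to 136 CPM in N2 and 120 to 223 CPM in the mutant. Of 7 tested embryonic markers out of 9, 1 was higher on AL and 5 on DR, with sums of 24.2 to 34.8 CPM in N2 and 36.8 to 55.5 CPM in the mutant and 0 to 2 genes at 0 in a library. Of 6 body wall muscle markers, 0 passed on AL and 3 were higher on DR, with sums of 96.6 to 456 CPM in N2 and 296 to 464 CPM in the mutant. Without N2 AL replicate 3, 9 neuronal, 3 intestinal, 2 embryonic and 1 muscle marker were higher and 7 germ line markers lower on AL. On DR, 8 neuronal, 3 intestinal, 5 embryonic and 4 muscle markers were then higher, and 9 germ line markers and 1 intestinal marker lower. In that fit 23.3% of all tested genes were higher and 13.5% lower on AL, and 34.6% and 30% on DR. The part of these shifts in the differences of the insulin-like peptide genes was not tested.

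Among the agonists, ins-7 acts between tissues: it is made in the intestine and in neurons, is repressed by DAF-16 and lowers DAF-16 activity in other cells. Its level was 0.313, 0.286 and 14.8 CPM in N2 AL and 0.220, 0.611 and 0.677 CPM in N2 DR. In the mutant it was 3.67, 4.54 and 12.2 CPM on AL and 8.47, 5.85 and 6.69 CPM on DR. All 6 mutant libraries were above 5 of the 6 N2 libraries, while N2 AL replicate 3 was the highest of all 12. On DR the difference was 3.77 ± 1.25 (log2 fold change ± SE, edgeR adjusted p = 0.0323), and the call was lost without any 1 of the 6 DR libraries (log2 3.42 to 3.96, adjusted p = 0.0523 to 0.1, all still positive). Those fits kept N2 AL replicate 3, which enters the shared spread. Without it the DR difference was 3.71 ± 0.49 (edgeR adjusted p = 5.06e-05). With only the 6 DR libraries it was 3.77 ± 0.34 (edgeR adjusted p = 5.51e-05). The DR call held in 12 of 20 alternative settings. On AL the difference did not pass with all libraries (0.49 ± 1.07, edgeR adjusted p = 0.797), and it was 4.44 ± 0.64 without N2 AL replicate 3 (edgeR adjusted p = 0.00027). DESeq2 gave ins-7 no adjusted p on DR, and with the genes of low count included the DR difference was 3.68 (edgeR adjusted p = 0.0712).

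The neighbour of ins-7 on chromosome IV, ins-8, had too few counts to be tested with all libraries. It had 0, 0 and 1 counts in N2 AL, 0 counts in each N2 DR library, 5, 7 and 7 counts in sek-1 AL and 5, 26 and 19 counts in sek-1 DR. The mutant libraries thus all held reads and only 1 N2 library did. Its summed CPM in sek-1 DR was 16.6 times the limit for N2 DR, taken as 3 counts over the group. This takes the mutant counts as exact and leaves out their spread between libraries (0.180 to 1.025 CPM), so it is no lower bound. On AL the ratio of the mutant to N2 was 13.9, with an exact 95% interval of 2.22 to 580 for counting error.

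The peptide of ins-35 is made in the intestine. Its level in N2 was 0.0696, 0 and 0.557 CPM on AL and 0.220, 0.115 and 0.1195 CPM on DR. In the mutant it was 0.353, 0.269 and 0.816 CPM on AL and 0.469, 1.08 and 1.24 CPM on DR. On DR the genotypes did not overlap, and on AL only N2 AL replicate 3 lay within the mutant range. The DR difference was 2.58 ± 0.83 (edgeR adjusted p = 0.0295), and it no longer passed without N2 DR replicate 1, 2 or 3 or sek-1 DR replicate 2 or 3 (log2 2.32 to 2.91, adjusted p = 0.0575 to 0.1). The AL difference was 1.53 ± 0.92 (edgeR adjusted p = 0.261) and 3.31 ± 0.91 without N2 AL replicate 3 (edgeR adjusted p = 0.0118). Mutant libraries were needed for ins-35 to enter the test, so its calls are no support for a difference. Reads of ins-11, an intestinal peptide that is induced by pathogens and acts in their avoidance, were too few for a test: 0, 0 and 1 counts in N2 AL, 0, 1 and 1 in N2 DR, 2, 4 and 1 in sek-1 AL and 1, 3 and 1 in sek-1 DR. The ratio of the mutant to N2 was 5.14 on AL (exact 95% interval 0.66 to 232) and 2.49 on DR (0.408 to 26.2), and both intervals include equality.

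The peptides of ins-4, ins-6 and daf-28 are agonists that oppose dauer arrest, and ins-6 and daf-28 are made in sensory neurons. The level of ins-6 was 0.383, 0.229 and 0.929 CPM in N2 AL and 0.0441, 0.153 and 0.0398 CPM in N2 DR, the last group resting on 1, 4 and 1 counts. In the mutant it was 0.423, 0.231 and 0.472 CPM on AL and 0.469, 0.610 and 0.701 CPM on DR. N2 DR was thus the low group, below every library of the other 3 groups. On DR the mutant was higher by 2.79 ± 0.66 (log2, edgeR adjusted p = 0.00677), and this call held in all 20 alternative settings tried, leaving out each library included (log2 2.27 to 3.65). Since ins-6 needed mutant libraries to enter the test, the call is a description and no support for a difference. On AL the difference was -0.35 ± 0.57 (edgeR adjusted p = 0.722), and its sign turned when N2 AL replicate 3 was left out (0.23 ± 0.53, adjusted p = 0.754).

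The level of ins-4 was 0.383, 0.172 and 0.743 CPM in N2 AL and 0.132, 0.268 and 0.159 CPM in N2 DR, against 1.13, 1.15 and 0.902 CPM in sek-1 AL and 0.577, 0.718 and 0.485 CPM in sek-1 DR. All mutant libraries were above all N2 libraries of the same diet. On DR the difference was 1.64 ± 0.49 (edgeR adjusted p = 0.02), and it no longer passed without N2 DR replicate 1 or 3 or sek-1 DR replicate 2 (log2 1.43 to 1.46, adjusted p = 0.0669 to 0.0732). On AL it was 1.38 ± 0.46 (edgeR adjusted p = 0.0572), and it passed without N2 AL replicate 3 (1.84, adjusted p = 0.00543) and without N2 DR replicate 3 (1.44, adjusted p = 0.0466). These calls too are a description only, as ins-4 needed mutant libraries to enter the test.

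For daf-28, the levels were 0.418, 0.286 and 0.0929 CPM in N2 AL, 0.441, 0.115 and 0.239 CPM in N2 DR, 0.494, 0.846 and 0.902 CPM in sek-1 AL and 0.433, 0.754 and 1.08 CPM in sek-1 DR. The groups overlapped on DR, where sek-1 DR replicate 1 was slightly below N2 DR replicate 1, and did not on AL. The difference was 1.33 ± 0.58 on AL (edgeR adjusted p = 0.128, and 1.02 ± 0.53, adjusted p = 0.139, without N2 AL replicate 3) and 1.49 ± 0.57 on DR (edgeR adjusted p = 0.0551). On DR it passed without N2 AL replicate 3, N2 DR replicate 1 or sek-1 DR replicate 1 (log2 1.42 to 2.04, adjusted p = 0.0193 to 0.0491). Like ins-4 and ins-6, daf-28 needed mutant libraries to enter the test.

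In larvae, ins-3 and ins-33 promote proliferation of the germ line. The level of ins-3 was 1.81, 2.69 and 6.32 CPM in N2 AL and 2.69, 2.98 and 6.41 CPM in N2 DR, against 0.670, 0.923 and 1.29 CPM in sek-1 AL and 1.05, 1.04 and 1.89 CPM in sek-1 DR. On both diets every N2 library exceeded every mutant library. The differences were -1.87 ± 0.52 on AL (edgeR adjusted p = 0.0295) and -1.62 ± 0.50 on DR (edgeR adjusted p = 0.024). With N2 AL replicate 3 left out, the AL difference was -1.22 ± 0.42 and passed (edgeR adjusted p = 0.0361). Without sek-1 AL replicate 1 or 2 the AL difference was -1.57 or -1.76 and no longer passed (adjusted p = 0.0961 and 0.0787). Nor did that on DR pass without N2 DR replicate 3 or sek-1 DR replicate 1 or 2 (log2 -1.20 to -1.54, adjusted p = 0.0611 to 0.0768). With only the 6 AL libraries in the fit, the AL difference was -1.81 and did not pass (edgeR adjusted p = 0.0776).

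Its partner ins-33 had 1 to 6 counts in every library, 33 in all, and was not tested. It ranged from 0.0398 to 0.172 CPM in N2 and from 0.0721 to 0.215 CPM in the mutant, and the genotypes overlapped on both diets.

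The other member that was lower in the mutant was ins-27, in the chain on chromosome I. Its level was 2.16, 1.66 and 4.65 CPM in N2 AL and 2.20, 1.22 and 1.35 CPM in N2 DR. It was 0.847, 1.08 and 0.773 CPM in sek-1 AL and 0.793, 0.862 and 0.809 CPM in sek-1 DR. All 6 mutant libraries were below all 6 N2 libraries. The difference was -1.61 ± 0.39 on AL (edgeR adjusted p = 0.0146), which became -1.40 and missed the threshold without sek-1 AL replicate 3 (adjusted p = 0.0538), and -1.55 with only the 6 AL libraries (adjusted p = 0.0711). The AL difference was -1.09 ± 0.31 with N2 AL replicate 3 left out (edgeR adjusted p = 0.0139). On DR it was -0.95 ± 0.39 (edgeR adjusted p = 0.072). The DR difference passed without N2 AL replicate 2 or 3 or sek-1 AL replicate 3 (log2 -0.96 to -1.02, adjusted p = 0.00718 to 0.0498).

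On chromosome III, ins-23 was higher in the mutant on both diets, and its neighbour ins-22 was not called. The level of ins-23 was 0.418, 0.343 and 0.743 CPM in N2 AL, 0.969, 1.15 and 2.15 CPM in N2 DR, 2.05, 1.39 and 2.23 CPM in sek-1 AL and 2.45, 2.98 and 3.72 CPM in sek-1 DR. N2 AL was the lowest group and sek-1 DR the highest, and the genotypes did not overlap on either diet. The difference was 1.98 ± 0.40 on AL (edgeR adjusted p = 0.00583), which held in all 20 alternative settings (log2 1.81 to 2.28) and was 2.27 ± 0.42 without N2 AL replicate 3 (adjusted p = 0.000969). On DR it was 1.09 ± 0.35 (edgeR adjusted p = 0.0276). The DR call was lost without N2 DR replicate 1 or 2 or sek-1 DR replicate 2 or 3 (log2 0.87 to 1.05, adjusted p = 0.0655 to 0.102).

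For ins-22, the levels were 0.800, 0.572 and 2.51 CPM in N2 AL, 1.54, 1.41 and 1.95 CPM in N2 DR, 1.31, 1.73 and 3.31 CPM in sek-1 AL and 2.16, 4.67 and 5.39 CPM in sek-1 DR. Only N2 AL replicate 3 reached into the mutant range on AL, and on DR the genotypes did not overlap. The difference was 0.81 ± 0.55 on AL (edgeR adjusted p = 0.327) and 1.31 ± 0.51 on DR (edgeR adjusted p = 0.0624). Without N2 AL replicate 3 it was 1.56 ± 0.47 on AL (edgeR adjusted p = 0.0192) and 1.23 ± 0.35 on DR (edgeR adjusted p = 0.00699). The DR difference also passed without N2 AL replicate 2 (1.30, adjusted p = 0.0498) and without sek-1 DR replicate 1 (1.60, adjusted p = 0.0384).

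The third member of that chain, ins-21, had 7 counts in all, 6 of them in N2 AL and 0 in the 6 mutant libraries. Without N2 AL replicate 3, N2 AL held 1 count.

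**Figure D4:**
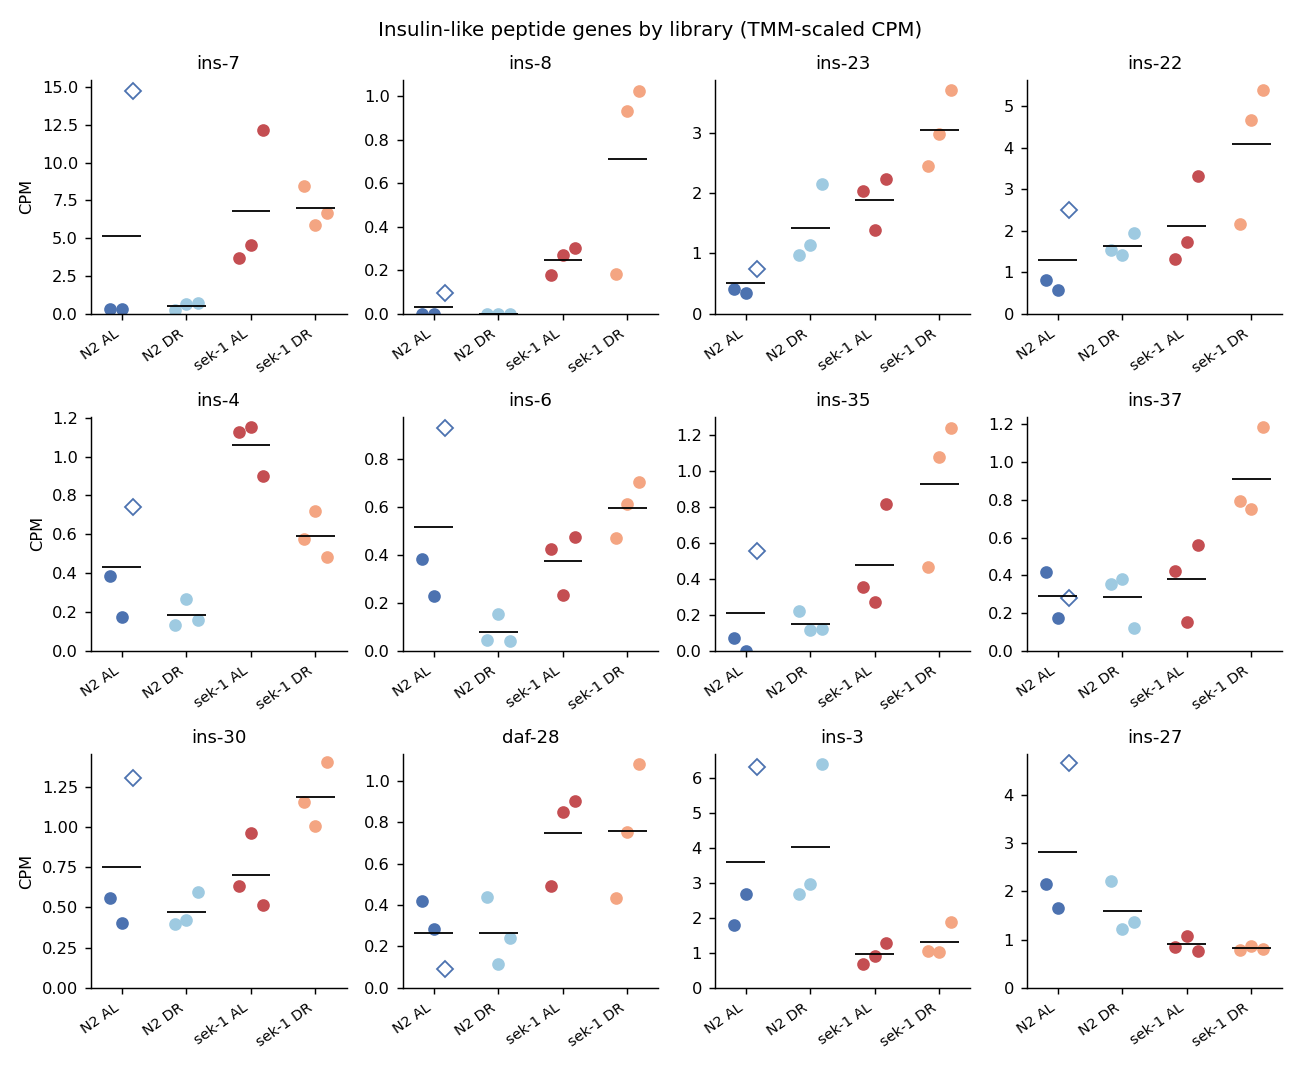
Level in CPM of 12 insulin-like peptide genes in each library of the 4 groups, with a bar at the group mean. The open diamond is N2 AL replicate 3. Mutant libraries lie above N2 libraries of the same diet for ins-4 and ins-23 and below them for ins-3 and ins-27, and the diamond reaches 14.8 CPM for ins-7.

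The differences of ins-30 and ins-37 were seen on DR. The level of ins-30 was 0.557, 0.400 and 1.30 CPM in N2 AL and 0.397, 0.420 and 0.598 CPM in N2 DR, against 0.635, 0.962 and 0.515 CPM in sek-1 AL and 1.15, 1.01 and 1.40 CPM in sek-1 DR. The genotypes overlapped on AL and not on DR. The DR difference was 1.31 ± 0.43 (edgeR adjusted p = 0.03), and it no longer passed without N2 DR replicate 1 or 2 or sek-1 DR replicate 1 or 3 (log2 1.18 to 1.32, adjusted p = 0.0633 to 0.0922). On AL it was -0.01 ± 0.46 (edgeR adjusted p = 0.994), and 0.525 ± 0.40 without N2 AL replicate 3 (adjusted p = 0.313).

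For ins-37, whose exons overlap R05D7.8 on the other strand, the levels were 0.418, 0.172 and 0.279 CPM in N2 AL, 0.352, 0.382 and 0.1195 CPM in N2 DR, 0.423, 0.154 and 0.558 CPM in sek-1 AL and 0.793, 0.754 and 1.19 CPM in sek-1 DR. Here sek-1 DR was above all other libraries. The DR difference was 1.65 ± 0.54 (edgeR adjusted p = 0.0317). That call was lost without any 1 of the 6 DR libraries or sek-1 AL replicate 1 (log2 1.21 to 1.92, adjusted p = 0.0514 to 0.127), and with the genes of low count included (1.55, adjusted p = 0.0589). The AL difference was 0.32 ± 0.59 (edgeR adjusted p = 0.755), and 0.25 ± 0.60 without N2 AL replicate 3 (adjusted p = 0.768). As ins-37 needed mutant libraries to enter the test, its DR call is no support for a difference.

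The antagonists ins-1, ins-17 and ins-18 did not pass by genotype on either diet. For ins-1, the relative of vertebrate insulin that acts in learning, the levels were 0.348, 0.172 and 0.0929 CPM in N2 AL, 0.485, 0.459 and 0.637 CPM in N2 DR, 0.353, 0.654 and 0.558 CPM in sek-1 AL and 0.793, 0.898 and 1.03 CPM in sek-1 DR. All mutant libraries were above all N2 libraries of the same diet. The difference was 1.17 ± 0.46 on AL (edgeR adjusted p = 0.0972) and 0.77 ± 0.39 on DR (edgeR adjusted p = 0.138), and without N2 AL replicate 1 that on AL passed (1.87, adjusted p = 0.0404). It was 0.90 ± 0.46 on AL without N2 AL replicate 3 (edgeR adjusted p = 0.135).

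For ins-18, the levels were 0.696, 0.172 and 0.650 CPM in N2 AL, 0.132, 0.344 and 0.319 CPM in N2 DR, 0.423, 0.385 and 0.387 CPM in sek-1 AL and 0.541, 0.467 and 0.432 CPM in sek-1 DR. N2 AL spread across the whole mutant range, and the genotypes did not overlap on DR. The differences were -0.35 ± 0.51 on AL (edgeR adjusted p = 0.683) and 0.84 ± 0.51 on DR (edgeR adjusted p = 0.211). The levels of ins-17 were 2.51, 2.46 and 5.67 CPM in N2 AL, 3.70, 2.56 and 2.55 CPM in N2 DR, 1.94, 2.04 and 2.75 CPM in sek-1 AL and 2.42, 3.09 and 4.96 CPM in sek-1 DR, with overlap between the genotypes on both diets. The differences of ins-17 were -0.63 ± 0.37 on AL (edgeR adjusted p = 0.258) and 0.24 ± 0.36 on DR (edgeR adjusted p = 0.618). With N2 AL replicate 3 left out, the AL differences were -0.23 ± 0.52 for ins-18 (edgeR adjusted p = 0.746) and -0.16 ± 0.30 for ins-17 (edgeR adjusted p = 0.704).

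The highest genes without a genotype call were ins-2 and ins-34. The level of ins-2 was 2.96, 4.23 and 11.5 CPM in N2 AL, 4.54, 6.61 and 13.6 CPM in N2 DR, 3.81, 2.69 and 8.72 CPM in sek-1 AL and 5.48, 6.21 and 7.44 CPM in sek-1 DR. The library numbered 3 was highest in each group, and the groups overlapped. The genotype difference was -0.27 ± 0.57 on AL (edgeR adjusted p = 0.793) and -0.37 ± 0.56 on DR (edgeR adjusted p = 0.61). The AL value turned to 0.49 ± 0.54 without N2 AL replicate 3 (edgeR adjusted p = 0.497).

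For ins-34, whose exons overlap nkcc-1 on the other strand, the levels were 2.37, 2.46 and 6.596 CPM in N2 AL and 3.13, 2.75 and 4.50 CPM in N2 DR. In the mutant they were 2.36, 2.12 and 3.87 CPM on AL and 4.36, 4.99 and 5.23 CPM on DR. The genotypes overlapped on both diets, with differences of -0.41 ± 0.40 on AL (edgeR adjusted p = 0.501) and 0.49 ± 0.38 on DR (edgeR adjusted p = 0.325). Here too the AL value turned in sign without N2 AL replicate 3, to 0.19 ± 0.28 (edgeR adjusted p = 0.61).

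Within the chain on chromosome II, the calls of neighbours differed, those of ins-4 and ins-6 being a description only. On DR, ins-3 was lower in the mutant, ins-4 and ins-6 were higher, and ins-2 (-0.37 ± 0.56) and ins-5 (0.77 ± 0.38) did not pass. In the chain on chromosome I, ins-27 was lower on AL and ins-30 higher on DR, and the other tested genes of the chain (ins-24, ins-26 and ins-28) did not pass on either diet.

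The remaining 17 genes, ins-8, ins-11, ins-21 and ins-33 among them, had 4 to 70 counts each over the 12 libraries and were not tested in the main fit. In some fits that left out 1 library, ins-8 was tested. All 17 were tested when every gene with a count in at least 3 libraries was kept. In that fit ins-8 and ins-31 were higher in the mutant on DR (edgeR adjusted p = 0.00223 and 0.00982), beside 19.7% of all genes in that fit. Both held more counts in the mutant and entered that fit largely through them, so these p-values are no support for a difference. For ins-31, the counts were 1, 0 and 2 in N2 AL, 0 in each N2 DR library, 5, 5 and 7 in sek-1 AL and 10, 3 and 9 in sek-1 DR. Its summed CPM in sek-1 DR was 7.32 times the limit for N2 DR of 3 counts over the group. The spread between the sek-1 DR libraries (0.108 to 0.485 CPM) is left out, so this is no lower bound. In sek-1 AL its summed CPM was 4.16 times that of N2 AL (exact 95% interval 1.2 to 22.2 for counting error). For ins-19 there were 39 counts in N2 AL, 29 of them in N2 AL replicate 3, and 1 count in N2 DR.

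The 2 diet comparisons ask how transcript levels on diluted food differ from those on full food in each genotype. Of the 22 members, 0 passed in N2, where 1.09% of all tested genes passed, and 0 passed in the mutant, where 0.452% did. DESeq2 called 2 and 0 (beside 3.65% and 4.97% of all genes), and limma voom with library weights called 1 and 10 (beside 7.19% and 43.4%). The median log2 fold change on DR was -0.41 in N2 and 0.45 in the mutant, where all tested genes had -0.06 and 0.01. The libraries of the 2 diets did not overlap for 2 members that were higher and 2 that were lower on DR in N2, beside 15.7% of all tested genes in either direction. In the mutant these were 7 and 1, beside 36.3%. The median in N2 turned to 0.25 without N2 AL replicate 3, and that in the mutant was 0.41, where all tested genes had 0.03 and -0.03. The diets then did not overlap for 9 higher and 2 lower members in N2, beside 32.2% of all genes tested, and for 7 and 1 in the mutant, beside 36.1%. These comparisons share their libraries with the genotype comparisons.

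Of the members in N2, the diet difference had the smallest unadjusted p for ins-23, whose DR libraries (0.969 to 2.15 CPM) were above its AL libraries (0.343 to 0.743 CPM). It was 1.58 ± 0.41 (log2, edgeR adjusted p = 0.102) and passed without N2 AL replicate 3 (1.89 ± 0.43, edgeR adjusted p = 0.0287, beside 2.73% of all genes) and with DESeq2 (1.61, adjusted p = 0.0193). In the other direction, ins-6 (all DR libraries at or below 0.153 CPM, all AL libraries at or above 0.229 CPM) had a difference of -2.496 ± 0.69 (edgeR adjusted p = 0.125), and with DESeq2 it passed (-2.53, adjusted p = 0.0496). It was -1.895 ± 0.66 without N2 AL replicate 3 (edgeR adjusted p = 0.169). The difference of ins-1 was 1.19 ± 0.46 (edgeR adjusted p = 0.276), and 0.94 ± 0.47 without that library (adjusted p = 0.386). For ins-7, N2 AL replicate 3 set the sign of the estimate: the value was 0.76 ± 0.79 without it (edgeR adjusted p = 0.758) and negative with it (-3.23 ± 1.26, edgeR adjusted p = 0.284).

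In the mutant, ins-37 had the smallest unadjusted p, with 0.154 to 0.558 CPM on AL and 0.754 to 1.19 CPM on DR (1.25 ± 0.53, edgeR adjusted p = 0.323). The groups did not overlap. These values are a description only, as ins-37 needed mutant libraries to enter the test. Without N2 AL replicate 3, ins-34 passed (0.77 ± 0.24, edgeR adjusted p = 0.0422), and all 3 of its DR libraries were above its AL libraries. In that fit 15.1% of all tested genes passed. For ins-7, the diet difference in the mutant was 0.05 ± 1.03 (edgeR adjusted p = 0.991).

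**Figure D5:**
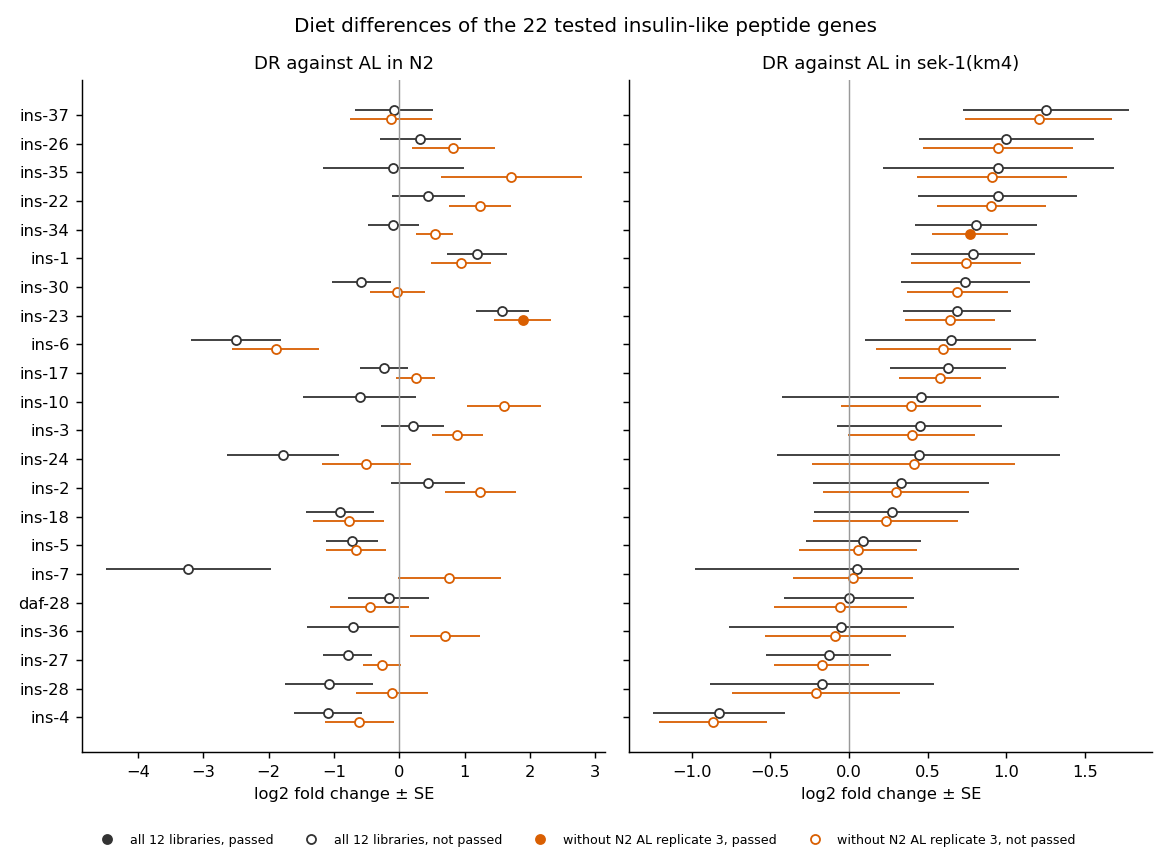
Log2 fold change of DR against AL in N2 (left) and in sek-1(km4) (right) for the 22 tested members, with SE, from edgeR with all 12 libraries (dark) and without N2 AL replicate 3 (orange). Filled points passed at an adjusted p under 0.05: no dark point is filled, and ins-23 in N2 and ins-34 in the mutant are filled in orange. The scales of the 2 panels differ.

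The interaction asks whether the diet difference itself differs between genotypes. It was passed by 0 of the 22 members and by 0% of all tested genes (0 members with DESeq2, beside 0.342% of all genes, and 1 with limma voom, beside 9.34%). With N2 AL replicate 3 left out, 0 members and 0.0876% of all genes passed. At an unadjusted p under 0.05 edgeR gave 1 member, ins-6, whose diet difference was -2.496 in N2 and 0.65 in the mutant, an interaction of 3.14 ± 0.88 (edgeR adjusted p = 0.531). Leaving out N2 AL replicate 3 gave 2.495 ± 0.79 (edgeR adjusted p = 0.203), and limma voom with library weights called it (2.37, adjusted p = 0.0292). As ins-6 needed mutant libraries to enter the test, its interaction values are a description and no support for a difference. The interaction of ins-7 was 3.28 ± 1.63 (edgeR adjusted p = 0.565) with all libraries and -0.74 ± 0.88 (edgeR adjusted p = 0.712) without N2 AL replicate 3.

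The pathway that these peptides feed into was described with 4 lists. Their counts stand beside the all-gene shares. With all libraries, 12.7% of tested genes were higher and 4.72% lower by genotype on AL, and 24.9% and 14.6% on DR. Without N2 AL replicate 3 these were 23.3% and 13.5% on AL and 34.6% and 30% on DR. By diet, 1.09% passed in N2 and 0.452% in the mutant with all libraries, and 2.73% and 15.1% without N2 AL replicate 3. Of 13 genes of the insulin signalling core, ftt-2 (a 14-3-3 protein that holds DAF-16 in the cytoplasm) was higher in the mutant on AL (0.78 ± 0.18, edgeR adjusted p = 0.00953). On DR ist-1, the insulin receptor substrate gene, was higher (0.74 ± 0.22, edgeR adjusted p = 0.0179). The kinase gene sgk-1 (1.00 ± 0.37) and ftt-2 (0.74 ± 0.18) were also higher, and par-5, the other 14-3-3 gene, was lower (-0.58 ± 0.20). The median log2 fold change of the list was 0.20 on AL and -0.05 on DR, where all tested genes had 0.02 and 0.17, and with all libraries 0 passed by diet. The receptor gene daf-2 stood at 217, 209 and 30.8 CPM in N2 AL and at 136 to 210 CPM in the other 3 groups, so that N2 AL replicate 3 was low. It did not pass on AL (0.21 ± 0.51, edgeR adjusted p = 0.823) or DR (-0.07 ± 0.51, edgeR adjusted p = 0.926). The DAF-16 gene, daf-16, did not pass either (0.42 ± 0.33 on AL, edgeR adjusted p = 0.404, and 0.28 ± 0.33 on DR, edgeR adjusted p = 0.508). When N2 AL replicate 3 was left out, daf-2 was at -0.27 ± 0.18 (edgeR adjusted p = 0.25) and daf-16 at 0.06 ± 0.15 on AL. In that fit ftt-2 was higher on AL (0.66 ± 0.13), and the PI3 kinase gene age-1 was lower (-0.56 ± 0.14, edgeR adjusted p = 0.00807). On DR the kinase gene pdk-1 was then also higher (0.41 ± 0.11), and age-1 (-0.74 ± 0.13) and the kinase gene akt-1 (-0.36 ± 0.10) were also lower.

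Of 10 genes for peptide processing and release from dense core vesicles, unc-31, which encodes the CAPS protein needed for vesicle release, was higher in the mutant on both diets. Its level was 1.31 to 3.07 CPM in the 6 N2 libraries and 5.64 to 8.31 CPM in the 6 mutant libraries, without overlap. The difference was 1.39 ± 0.23 on AL (edgeR adjusted p = 0.00162) and 2.26 ± 0.24 on DR (edgeR adjusted p = 6.11e-05). The chaperone gene of the prohormone convertase, sbt-1, was higher on DR (0.96 ± 0.23, edgeR adjusted p = 0.00686). The other 8 did not pass in either genotype comparison, and 0 passed by diet. Leaving out N2 AL replicate 3 gave 1.5 ± 0.24 for unc-31 on AL, and kpc-1, a proprotein convertase gene, was then lower on AL (-0.79 ± 0.17, edgeR adjusted p = 0.00267) and higher on DR than on AL in the mutant (0.54 ± 0.15, edgeR adjusted p = 0.0312). Of the neuronal markers, 6 and 7 of 10 were also higher, and their part was not tested.

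DAF-16 targets gave counts in both directions. Of 13 tested genes (14 listed) that rise when insulin signalling is low, sod-3, a superoxide dismutase gene, was higher in the mutant on AL (1.87 ± 0.35, edgeR adjusted p = 0.00329) and on DR (1.29 ± 0.35, edgeR adjusted p = 0.013). The ferritin gene ftn-1 was lower on both diets (-1.14 ± 0.24 on AL), and mtl-1, lea-1, ctl-1, lys-7 and nnt-1 were lower on DR (log2 -0.62 to -1.50). In N2, nnt-1 was higher (1.18 ± 0.22) and dod-3 lower (-1.70 ± 0.33) on DR. The median log2 fold change of the list by genotype was -0.57 on AL and -0.53 on DR, where all tested genes had 0.02 and 0.17. In the fit without N2 AL replicate 3, 1 of the 13 was higher and 4 were lower on AL (lea-1, nnt-1 and hil-1 added), and 1 and 7 on DR (ctl-2 added). The medians were -0.36 and -0.58, where all tested genes had 0.12 and 0.13. In that fit 1 rose and 1 fell by diet in N2, and in the mutant hsp-12.6, nnt-1 and hil-1 were higher and sod-3, ftn-1 and lys-7 lower on DR.

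Of 6 tested genes (7 listed) that fall when insulin signalling is low, dod-17, dod-22 and dod-24 were lower in the mutant on both diets and dod-23 was higher. The level of dod-24 was 8.21 to 23.8 CPM in N2 and 0.0721 to 0.287 CPM in the mutant (-6.68 ± 0.51 on AL and -6.63 ± 0.52 on DR, edgeR adjusted p = 1.04e-05 for both). Both dod-22 and dod-24 are also known as genes of the pathogen response. In N2, dod-19 was lower on DR (-1.97 ± 0.37, edgeR adjusted p = 0.0271). The median log2 fold change by genotype was -2.72 on AL and -1.13 on DR, where all tested genes had 0.02 and 0.17. Without N2 AL replicate 3 the medians were -2.63 and -1.18, where all tested genes had 0.12 and 0.13. The genotype counts were 1 higher and 3 lower on both diets as before, and dod-22 joined dod-19 as lower on DR in N2 (-2.58 ± 0.55, edgeR adjusted p = 0.018).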

How the data were processed

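Whole-number read counts per gene and library, not normalized, were deposited, and the authors made these counts with featureCounts of Subread, per the submitters' processing notes. No aligner, genome build, annotation or strand setting is given in the sources used here. Members were found by symbol, and exon lengths came from the Ensembl annotation of WBcel235. The counts were tested with edgeR 4.0.16 (R 4.3.3): filterByExpr with a minimum count of 10, TMM, 1 robust quasi-likelihood fit of all 12 libraries with a mean per group and no replicate term, 5 contrasts, and Benjamini-Hochberg adjustment over 14611 genes. SE is the log2 fold change over the square root of F. Alternatives used DESeq2 1.42.0, limma 3.58.1 (voom), other factors, filters, a replicate block and leaving out each library. Named with values were members that passed with all libraries or without N2 AL replicate 3, the 8 highest per kb, and members with a stated role. From each pathway list, genes that passed were named, with daf-2 and daf-16, and 1 gene of the insulin signalling core that passed without N2 AL replicate 3 is not reported here. The members and lists were chosen with earlier results of these data known. Total counts ran from 13673987 to 31675540, and intervals cover counting error only.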

Additional observations from a re-analysis of the deposited data

How the results depend on the processing

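With all libraries, 0 members passed by diet in N2, and this became 2 with DESeq2, and 1 with the replicate block, with offsets for exon length, with limma voom and with low-count genes kept and N2 AL replicate 3 left out (the last chosen after seeing the data). In the mutant 0 became 1 with only the 6 libraries compared, 10 with voom and 1 with the added setting. Over all genes, these settings in that order called 533, 246, 286, 1050 and 399 in N2 and 2161, 6334 and 1876 in the mutant. For genotype, 3 on AL became 1 with only the 6 libraries compared, 6 with offsets for exon length, 8 with voom and 8 with the added setting, and 8 on DR became 14 with voom and 14 with the added setting. Of 14611 genes, voom called 6942 on AL and 10914 on DR, and offsets for exon length called 31.4% on AL. With only the 6 libraries compared, 1187 genes passed on AL. The added setting called 26% of all genes on AL and 42.3% on DR, above the members' shares of 21.6% and 37.8%. The interaction count of 0 became 1 with voom. Leaving out each library gave 0 to 1 by diet in N2, 0 to 1 by diet in the mutant, 2 to 8 for genotype on AL, 2 to 12 for genotype on DR and 0 to 0 for the interaction. In the same order, 24 to 406, 6 to 2239, 1531 to 5458, 3785 to 9590 and 0 to 13 of all genes passed. Replicate numbers were not taken to pair the libraries, since in each of the 4 pairs of groups compared replicate 2 fell below the level of 0.1 asked of every pair (0.0356 to 0.0936). The correlations of same-numbered deviations ran from -0.0715 to 0.388 over 18 pairs of libraries, 13 of them above 0.1, and a library correlated best with its own number in 27 of 36 cases, a hint of pairing from the data and not from the design. Under the replicate block the counts were 1 by diet in N2 (ins-23, 1.5, adjusted p = 0.0424), 0 in the mutant, 3 and 9 for genotype on AL and DR (ins-22 came to pass on DR, 1.26, adjusted p = 0.0135), and 0 for the interaction. Over all genes the block called 246, 183, 3046, 6651 and 1 in these comparisons. Of the named genes' values under the alternatives, 0 reversed a called direction, 1360 stayed on the same side of the threshold, 69 came to pass, 40 no longer passed and 106 moved in sign without a call. The cause of these changes was not tested. Depth limits the 17 members with too few counts to be tested.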
